A study of Mus musculus with 4 samples.

Results

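The cytosolic ribosomal protein genes were examined in sorted pancreatic β cells from controls and from mutants of Robo1 and Robo2, which encode Roundabout guidance receptors. Members were the rows of the deposited gene table named Rpsa, or Rps, Rpl or Rplp followed by a number, with a closing letter a, l or x or a final digit allowed. The near-identical copies Rps3a2 and Rpl6l were left out. This gave 86 of 51912 genes, of which 83 are annotated as protein coding and 3 (Rps4l, Rps3a3 and Rps12l1) as processed pseudogenes. The rule keeps 2 near-identical copies. Rps12l1 is 100% identical to Rps12 over 80.8% of the Rps12 transcript, and Rps3a3 98.9% identical to Rps3a1 over 81.4% of the Rps3a1 transcript. All libraries came from neonates at day 13 that were heterozygous for Ucn3-Cre, a recombinase driven from a gene of maturing β cells, and for Rosa26-lsl-H2B-mCherry, the nuclear reporter used for sorting. The 2 control libraries are Robo1+/+ and Robo2+/+. The 2 mutant libraries are Robo1delta/delta and Robo2flx/flx. Loss of Robo2 depends on the Cre, but Robo1 carries a deletion that is not restricted to Cre-expressing cells. Nothing in the labels says whether the libraries of a genotype came from separate animals, and the spread behind each p-value may therefore be technical alone.

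The ribosome is built from a small subunit, which decodes the messenger RNA, and a large subunit, which joins amino acids and carries a flexible stalk that recruits the elongation factors. Its proteins are needed in near-equal numbers, and their messenger RNAs belong to the TOP class, which begins with a C followed by a run of pyrimidines. Translation of TOP messages is controlled by the growth kinase complex mTORC1 through the RNA-binding protein LARP1. In β cells ribosomes serve the bulk synthesis of proinsulin.

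The start sites of leading members are shown because the pyrimidine run is the sequence feature that these genes are known to share. The windows span 30 bases before to 30 bases from the annotated start, 5′ to 3′, from RefSeq on GRCm38.p6. Capitals mark the longest run of C and T inside the stretch from 20 bases before to 30 bases after the start, where it had at least 8 bases. Among members with a small p in the comparison of genotypes, Rpl23a, Rpl21 and Rps4l matched no window and are not shown. The first 7 shown are other members with a small p, and the last is the paralog of Rpl22. They lie at chr5:107900498-107900557 (plus strand, Rpl5), chr11:68901536-68901595 (plus, Rpl26), chr4:152325696-152325755 (plus, Rpl22), chr17:33955636-33955695 (minus, Rps18), chr9:120571487-120571546 (plus, Rpl14), chrX:74270786-74270845 (plus, Rpl10), chr9:44407684-44407743 (plus, Rps25) and chr3:28805478-28805537 (plus, Rpl22l1).
Rpl5: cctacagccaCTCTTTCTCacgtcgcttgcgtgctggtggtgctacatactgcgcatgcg
Rpl26: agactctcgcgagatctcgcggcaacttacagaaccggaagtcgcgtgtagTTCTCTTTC
Rpl22: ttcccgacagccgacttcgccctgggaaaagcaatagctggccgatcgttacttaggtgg
Rps18: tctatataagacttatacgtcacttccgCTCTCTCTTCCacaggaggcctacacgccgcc
Rpl14: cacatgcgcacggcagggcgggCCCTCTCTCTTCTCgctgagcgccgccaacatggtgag
Rpl10: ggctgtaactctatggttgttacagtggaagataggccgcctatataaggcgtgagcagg
Rps25: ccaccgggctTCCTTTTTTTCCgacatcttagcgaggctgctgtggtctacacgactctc
Rpl22l1: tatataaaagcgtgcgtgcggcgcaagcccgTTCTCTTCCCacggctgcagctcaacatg
Rps18, Rpl14 and Rpl22l1 have the run at or next to the annotated start, Rpl26 has it downstream, Rpl5 and Rps25 have it upstream, and Rpl10 and Rpl22 have none of this length. An annotated start can differ from the one used in β cells.

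Of the 86 members, 63 matched a RefSeq promoter window by symbol, and 34 of these (54.0%) had such a run, against 21.5% of the 27025 genes with a window and 21.8% of those tested. CCGGAAGT, the core that ETS factors such as GABP bind, stood within the 300-base window on either strand in 12 members (19.0%, against 4.31% of all genes and 8.42% of the 11346 genes that were also tested). AAGATGG, part of the sequence bound by YY1, stood there in 10 members (15.9%, against 7.28% and 7.98%). TATAAA on the coding strand was found in 6 (9.52%, against 9.77% and 5.48%). A match describes the letters and does not show binding. The 34 tested members with a pyrimidine run had a median log2 change of 0.24 between genotypes, the 26 without one had a median of 0.20, and the 22 with no matched window had a median of 0.29.

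The 4 libraries held between 38886129 and 49593712 counts. Levels are given as CPM, the count divided by the TMM-scaled library size in units of 1e+06. Robo1 had 48.5 CPM in control 1 and 104 in control 2, against 22.3 in mutant 1 and 21.01 in mutant 2. Robo2 had 75.2, 118, 32.7 and 25.6 CPM in the same order, which holds for every set of 4 values here. Neither passed in edgeR (adjusted p = 0.680 for each of the genes). All 13 β-cell markers were present in every library, and the insulin genes took between 12.8% and 20.02% of counts. Of these markers 12 had a log2 change below 0, and in 7 both mutant libraries lay below both controls, against 20.4% of all tested genes. Alpha-cell markers summed to 25482, 13644, 20740 and 25999 CPM, with 11 of 13 tested genes above 0, and delta-cell markers to 1210, 1162, 2629 and 1421 CPM, with 5 of 7 above 0. Markers of acinar cells, which make digestive enzymes, had the widest range of summed CPM between libraries. Their 28 genes summed to 9480 CPM in control 1, 1281 in control 2, 5263 in mutant 1 and 90029 in mutant 2, and 27 of the 28 had counts in every library, the exception being the defining factor gene Ptf1a (0.209, 0.049, 0 and 2.57 CPM). Stromal and endothelial markers summed to 2426, 722, 1103 and 19.5 CPM, a range that was wider than the acinar one in proportion. Leukocyte markers summed to 38.6, 11.3, 53.2 and 51.6 CPM, with 9 of 9 tested genes above 0. Of the tested acinar markers 27 of 28 were above 0, and of the stromal and endothelial ones 0 of 13. The share over all tested genes was 48.7%.

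Ribosomal protein transcripts were slightly more abundant in the mutant libraries as a group, and 0 of the 82 tested members passed the test. Summed, the 86 members stood at 5561 CPM in control 1, 4875 in control 2, 5742 in mutant 1 and 6737 in mutant 2. The genotypes did not overlap, but control 1 and mutant 1 lay close together, and each genotype had a wide spread. The means were 5218 ± 485 CPM in control and 6240 ± 703 CPM in mutant cells (SD, n = 2 each), a ratio of geometric means of 1.19. The exact two-sided permutation test over the 4 libraries gave p = 0.333, the smallest value that 6 assignments allow. As a share of all counts the members took 0.552% in control 1, 0.511% in control 2, 0.579% in mutant 1 and 0.641% in mutant 2. The Wilson 95% intervals of these shares were 0.550% to 0.554%, 0.509% to 0.513%, 0.577% to 0.581% and 0.639% to 0.644%. They cover counting error only, and reads without molecular identifiers are not independent molecules. In sorted bulk samples a shift in the mix of cells and a shift in RNA per cell cannot be told apart.

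Of the 82 tested members, which all had at least 10 counts in each of the 4 libraries, 76 had a log2 change above 0, that is 92.7%, against 48.7% of the 16517 genes tested. The median log2 change was 0.25, against -0.013 over all tested genes, and the middle 50% of members lay between 0.17 and 0.33. In 43 members both mutant libraries lay above both controls, against 16.1% of all tested genes, and in 2 both lay below, against 20.4%. By edgeR's quasi-likelihood test 0 members passed at an adjusted p under 0.05, as did 0% of all genes tested, and the smallest adjusted p among members was 0.680. At an unadjusted p under 0.05 there were 4 members on the higher side (1.99% of all genes) and 0 on the lower side (4.21%). DESeq2 also called 0 members, where it called 0.914% of all genes, and it put 10 members with a higher level at an unadjusted p under 0.05 (3.02% of all genes). Limma called 0 (0% of all genes), with 3 higher at an unadjusted p under 0.05 (2.31%).

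The shift was not of the same size in every library. Relative to each gene's mean over the 4 libraries, the median member stood at -0.0063 in control 1, -0.23 in control 2, 0.011 in mutant 1 and 0.24 in mutant 2 (log2). Mutant 2 was the highest library for 60 of the 82 members and control 2 the lowest for 69. Mutant 1 exceeded control 1 by a median log2 ratio of 0.043, with 50 of 82 members higher. Mutant 2 exceeded control 2 by 0.46, with 78 of 82 higher. Within the genotypes, control 2 lay below control 1 by a median of -0.21 and mutant 2 above mutant 1 by 0.23, so the difference inside each genotype was about as large as the difference between them. The library lowest for ribosomal protein transcripts, control 2, also had the lowest sum of acinar markers, and the highest, mutant 2, had the highest sum. The alpha-cell sum had the same lowest and highest library, and the stromal sum was lowest in mutant 2. The leukocyte sum was lowest in control 2 and highest in mutant 1. The part of these transcripts in the result was not tested. Without mutant 2 the median log2 change was 0.17, with 62 of 82 members above 0, and without control 2 it was 0.14, with 68 above 0. It was 0.38 without control 1 and 0.36 without mutant 1. With a library left out, 1 genotype has a single library, which is assumed to vary like the other genotype, so the p-values rest on the spread of 2 libraries. Without mutant 1 the count at an unadjusted p under 0.05 went from 4 to 23 on the higher side (6.16% of all genes in that fit). It was 0 without control 2 (0.837%), 1 without control 1 (0.942%) and 3 without mutant 2 (4.4%).

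**Figure D1:**
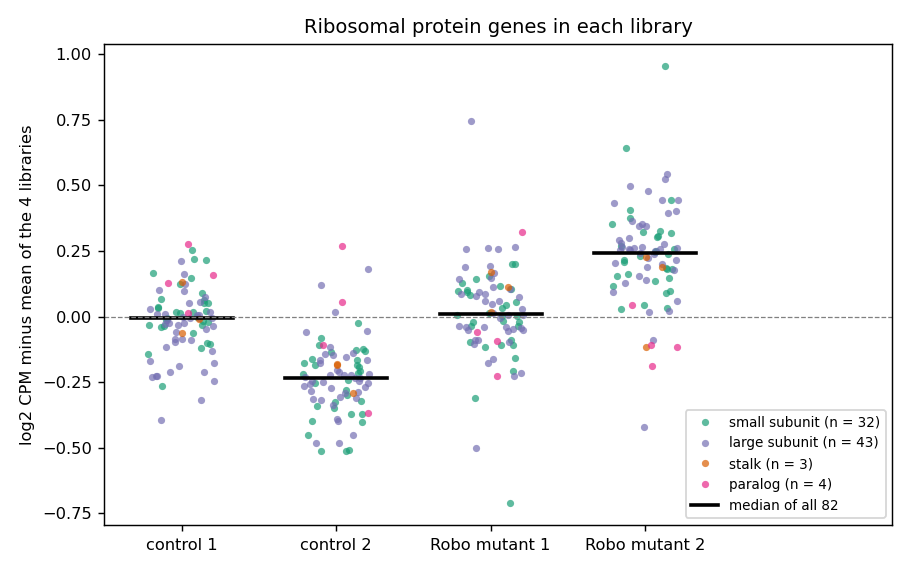
Each point is 1 of the 82 tested ribosomal protein genes in 1 library, plotted as log2 CPM minus that gene's mean over the 4 libraries and coloured by role; black bars are medians. The medians of control 1 (-0.0063) and mutant 1 (0.011) nearly coincide, with control 2 at -0.23 and mutant 2 at 0.24.

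The 43 tested large-subunit proteins, apart from the stalk and the paralogs, had a median log2 change of 0.28, and 42 were above 0. They held all 4 of the members at an unadjusted p under 0.05. Rpl5 (ENSMUSG00000058558, chromosome 5, 107900502 to 107909005, plus strand, GRCm38) encodes a protein that binds the ribosomal RNA of the central protuberance and, when ribosome assembly fails, the p53 regulator MDM2. It stood at 72.2 CPM in control 1, 65.2 in control 2, 98.7 in mutant 1 and 98.8 in mutant 2. Both mutant libraries were alike and above both controls, a 1.44-fold difference (log2 change 0.52 ± 0.13, SE, edgeR unadjusted p = 0.0115, adjusted p = 0.680, n = 2 each). Its log2 change was between 0.45 and 0.60 when any 1 library was left out.

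Rpl23a (ENSMUSG00000058546, chromosome 11, 78180932 to 78183584, minus strand), a protein at the exit of the peptide tunnel, behaved alike. Its values were 41.7, 40.1, 58.4 and 58.3 CPM, with close values inside each genotype and a gap between them. The log2 change was 0.51 ± 0.13 (SE, edgeR unadjusted p = 0.0146, adjusted p = 0.680, n = 2 each), and it ranged from 0.49 to 0.54 when a library was left out. Rpl21 (chromosome 5, 146832890 to 146837032, plus strand) followed at 62.2, 65.2, 76.8 and 86.2 CPM, again with no overlap, and a log2 change of 0.36 ± 0.13 (SE, unadjusted p = 0.0498 and adjusted p = 0.804, edgeR).

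Rpl26 (ENSMUSG00000060938, chromosome 11, 68901583 to 68906989, plus strand), whose protein also binds the messenger RNA of p53, had the largest fitted change of the tested members. It was at 27.1 and 25.5 CPM in the controls, 59.6 in mutant 1 and 38.8 in mutant 2, a log2 change of 0.91 ± 0.26 (SE, edgeR unadjusted p = 0.0197, adjusted p = 0.680). Its annotated near-identical copies, mostly Gm15772 at 99.5% identity, held 1114 and 671 counts in control 1 and control 2, 37 in mutant 1 and 1107 in mutant 2. Added to Rpl26, they gave 50.3, 41.9, 60.4 and 63.2 CPM and a log2 change of 0.42. Without mutant 1 its log2 change was 0.56, and without mutant 2 it was 1.18.

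The next large-subunit members by p were not under 0.05, with an unadjusted p from 0.058 (Rpl22) to 0.090 (Rpl13a) in edgeR. Rpl22 (chromosome 4, 152325742 to 152334071, plus strand), an RNA-binding protein that the ribosome can do without, was at 13.7 and 13.8 CPM in control and 18.4 and 24.7 CPM in mutant cells, a log2 change of 0.65 ± 0.26 (SE). Rpl14 (chromosome 9, 120571444 to 120574654, plus strand) was at 91.3, 86.6, 102 and 154 CPM. Rpl10, which helps form the site where tRNAs enter, was at 202 and 186 CPM in control and 238 and 236 CPM in mutant cells (log2 change 0.29 ± 0.13, SE). Rpl13a, which also takes part in translational silencing outside the ribosome, was at 56.0, 48.2, 61.8 and 68.9 CPM. These 4 genes were picked by p from the same libraries. In all 4 both mutant libraries lay above both controls, as in 43 of the 82 tested members and 16.1% of all tested genes. None passed in edgeR, with adjusted p from 0.832 to 0.889. Rpl29 was the large-subunit member with a log2 change below 0 (-0.20 ± 0.25, SE), at 51.8, 45.3, 51.2 and 33.4 CPM, and is named because of that. It was lower in mutant 2 alone.

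In the stalk, Rplp0, which anchors it to the large subunit, was at 233, 215, 246 and 285 CPM, and Rplp2 at 41.3, 33.9, 44.9 and 47.3 CPM. The log2 changes were 0.25 ± 0.14 and 0.29 ± 0.17 (SE). Rplp1, which pairs with Rplp2 in the stalk, overlapped between genotypes at 46.5, 37.4, 47.8 and 39.2 CPM (log2 change 0.051 ± 0.20, SE), and 0 of the 3 passed.

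The 32 tested small-subunit members, Rpsa and Rps12l1 among them, had a median log2 change of 0.25, and 30 were above 0. In 16 both mutant libraries lay above both controls, against 16.1% of all tested genes, and 0 had an unadjusted p under 0.05 in edgeR. Rps18 (chromosome 17, 33951999 to 33956001, minus strand), a protein of the subunit's head, was at 66.3 and 53.8 CPM in control and 74.0 and 96.8 CPM in mutant cells (log2 change 0.51 ± 0.20, SE, unadjusted p = 0.0602). Rps25 (chromosome 9, 44407139 to 44410427, plus strand), which viral internal ribosome entry sites need, was at 89.6, 63.0, 99.2 and 117 CPM (0.50 ± 0.22, SE). Rps26, a protein at the exit channel of the messenger RNA, was at 17.5, 16.6, 20.5 and 32.8 CPM, with a log2 change of 0.64, which was 0.27 without mutant 2. Rps6, the substrate of the S6 kinases, was at 161, 158, 170 and 207 CPM (0.24 ± 0.15, SE). Rps7 (-0.014) and Rps16 (-0.018), named because they were the small-subunit members below 0, overlapped between genotypes. The pseudogene Rps12l1 had only 18 to 52 counts a library and a standard error of 1.07.

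The ratio of summed small-subunit to summed large-subunit transcripts, which no library scaling changes, was 0.657 and 0.632 in control 1 and control 2 and 0.613 and 0.610 in mutant 1 and mutant 2. The mutant ratios were below the control ratios, by a log2 difference of -0.075 (exact permutation p = 0.333, the smallest possible with 4 libraries).

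**Figure D2:**
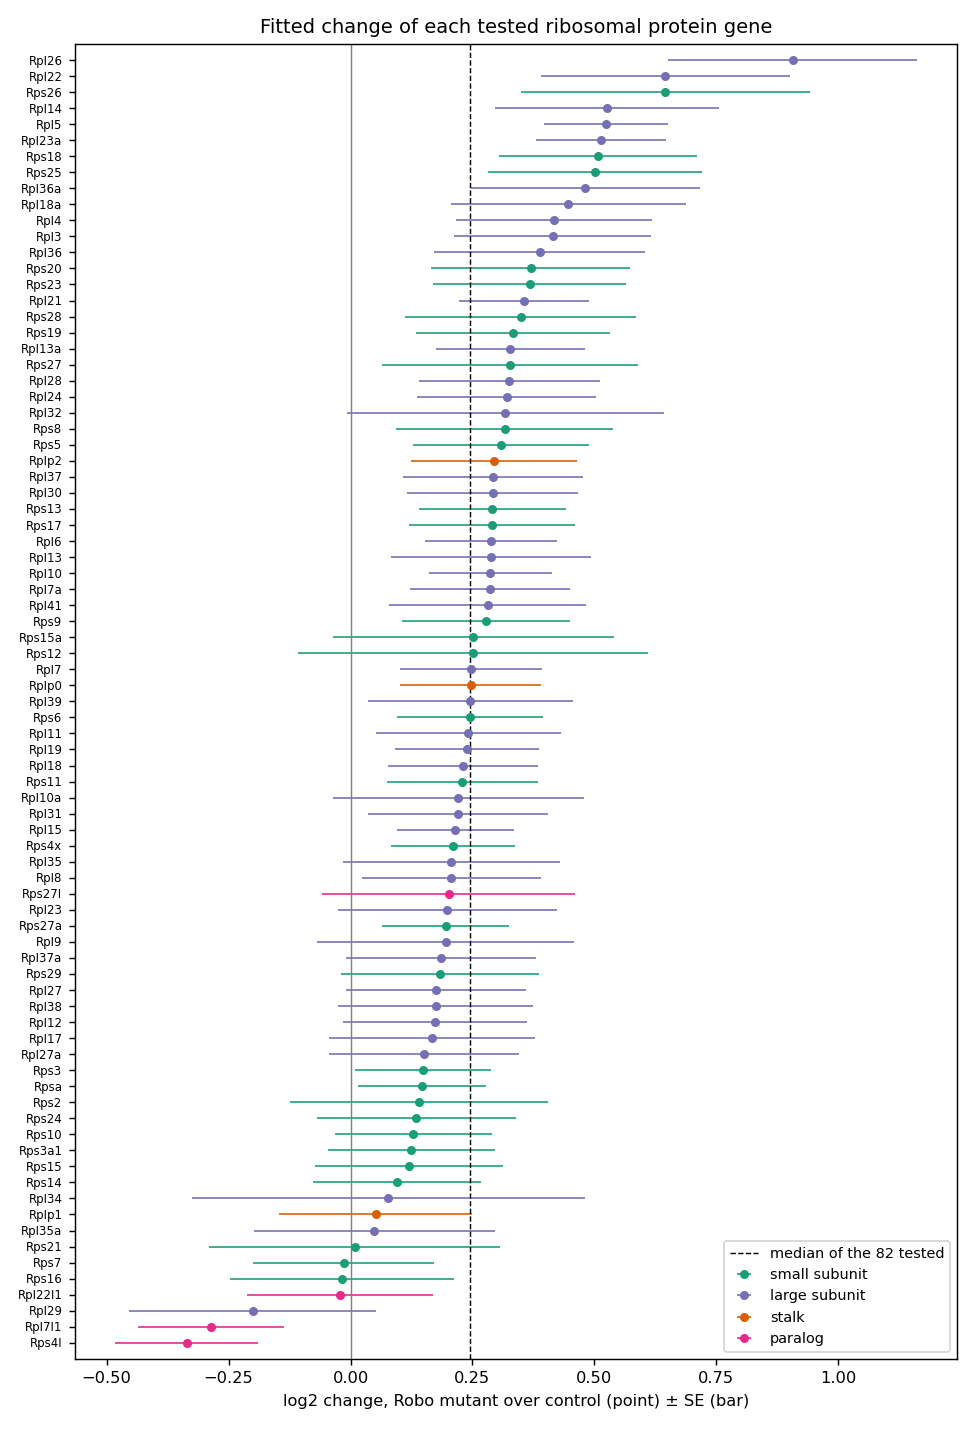
Fitted log2 change (point) and standard error (bar) of Robo mutant over control for 81 of the 82 tested members, sorted by size and coloured by role, with Rps12l1 left out for its wide error. Most points lie between 0.17 and 0.33, Rpl26 is highest at 0.91, and the paralogs Rps4l (-0.34) and Rpl7l1 (-0.29) are lowest.

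The paralogs were detected unevenly. Of 8, Rpl3l and Rpl10l, known from muscle and testis, had 0 counts in every library, and Rpl39l had 1 count in control 2 and 0 elsewhere. A count of 0 allows up to 3 counts, or 0.0600 to 0.0736 CPM. Rps3a3 had 0, 2, 9 and 7 counts, too few to test. The 4 tested paralogs had a median log2 change of -0.15, with 1 above 0. Rps4l (chromosome 6, 148354656 to 148355598, plus strand), annotated as a transcribed processed pseudogene, was at 84.1 and 72.0 CPM in control and 59.3 and 64.4 CPM in mutant cells, a log2 change of -0.34 ± 0.15 (SE, edgeR unadjusted p = 0.0765). In mutants it lay under each control value, as did Rpl7l1 (71.6, 85.4, 66.5 and 62.3 CPM, log2 change -0.29 ± 0.15, SE), whose protein acts in ribosome assembly. Neither passed the test.

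Within the pairs the share of the paralog moved as follows. Rpl22l1 (chromosome 3, 28805436 to 28807424, plus strand), which RPL22 protein is known to repress, took 67.7% and 63.9% of the counts of Rpl22 and Rpl22l1 in control 1 and control 2 and 57.9% and 52.4% in mutant 1 and mutant 2. Its own level overlapped between genotypes, at 28.8, 24.5, 25.3 and 27.2 CPM, while Rpl22 was higher in both mutant libraries. Rpl7l1 took 45.6% and 51.1% of its pair with Rpl7 in control and 42.4% and 36.5% in mutant cells. Rps4l took 52.7% and 51.3% of its pair with Rps4x in control and 41.8% and 43.4% in mutant cells. In these 3 pairs the groups did not overlap, with log2 ratios of paralog over partner lower by -0.65, -0.52 and -0.54 in the mutant libraries and an exact permutation p of 0.333 each. Each partner was itself higher, with log2 changes of 0.65 for Rpl22, 0.25 for Rpl7 and 0.21 for Rps4x. Of all tested members 92.7% were above 0, and a share also falls when only the partner rises. Rpl22l1 itself had a log2 change of -0.022. For single genes, 20.4% of all tested had both mutant libraries below both controls, and no such share was taken for ratios. Rps27l, a p53 target, took 58.4%, 60.7%, 61.7% and 52.1% of its pair with Rps27, and the groups overlapped (exact permutation p = 1). These are 4 comparisons, none of which can pass with 2 libraries a group.

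**Figure D3:**
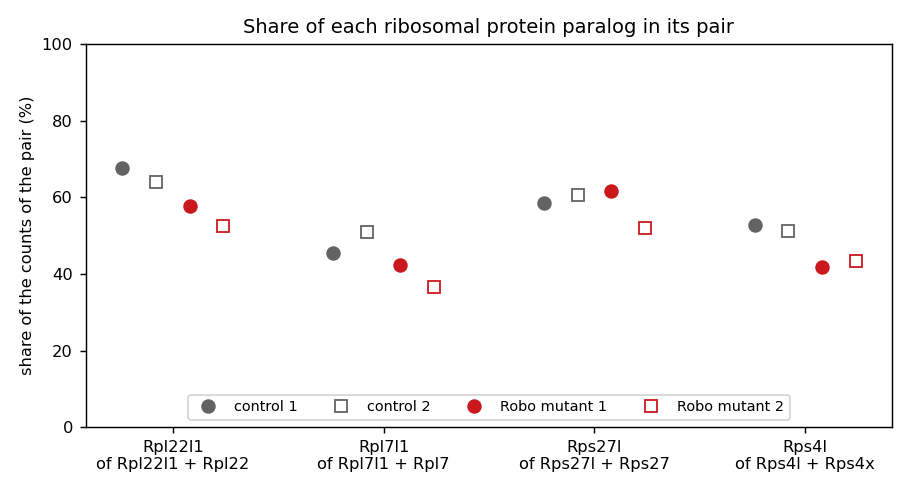
Share of the paralog (percent, from 0 to 100) in the summed counts of the paralog and its partner, 1 point a library, for the 4 pairs with a tested paralog. For Rpl22l1, Rpl7l1 and Rps4l both mutant points lie below both control points; for Rps27l they overlap.

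Levels between genes were compared per kilobase of an annotated principal transcript. By the mean of the 4 libraries Rpl10 was highest, with a range of 233 to 297 CPM per kilobase. Rpl41 (185 to 278), Rpl13 (194 to 297), Rpl37a (180 to 256) and Rps6 (180 to 235) followed. The ranges overlap, but the genes were measured in the same 4 libraries. Rpl13 was above Rpl37a, and Rpl37a above Rps6, in each library. Rpl10, Rpl41 and Rpl13 changed order with each other between libraries. Rpl41 was above Rpl10 in control 1, and Rpl13 was slightly above Rpl10 in mutant 2. No test of the order was made. Among the lowest were Rpl27a (20.99 to 26.6), Rpl22 (6.71 to 12.04), Rps20 (6.48 to 9.61), Rps15a (2.78 to 4.27) and the pseudogene Rps12l1 (0.902 to 2.86). For Rps20 and Rps15a the annotated transcript, of 3706 and 5130 bases, is longer than that of any other tested member, so the value is divided by a large length. The median coding member stood at 79.5 CPM per kilobase in the small subunit and at 71.8 in the large subunit. Neither the transcript length (Spearman's rho 0.010) nor the control level (-0.030) ordered the log2 changes of the 82 tested members, which share the same 4 libraries.

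Near-identical annotated copies, with at least 95% identity over at least 80% of the transcript, were found for 26 members (165 copies). They held 1.86% of the summed counts of members and copies. With these counts added to the members, 76 of 82 were above 0 and the median was 0.25. Copies were taken by sequence alone, and members were not counted as copies of each other. Wdr89, not named as a ribosomal protein gene, was counted as a copy of Rplp2 (145, 281, 164 and 149 counts). With it added, the log2 change of Rplp2 went from 0.29 to 0.21. Rps3a2, a processed pseudogene that the member rule leaves out, was at 5.70 and 6.94 CPM in control and 33.4 and 42.5 CPM in mutant cells, while its parent Rps3a1 was at 161, 145, 147 and 187 CPM. With all its copies added, the log2 change of Rps3a1 went from 0.12 to 0.36. Of 276 genes whose symbols begin with Rpl or Rps and hold -ps, the mark of a pseudogene, 48 had enough counts to test, 38 of these were above 0, and the median log2 change was 0.39. Which of the gene and its copies the reads came from cannot be told from gene-level counts.

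Other genes of translation were read from lists. Of 5 ribosomal protein genes whose symbols fall outside the member rule, 4 were above 0. They include Rack1 (log2 change 0.25), which docks signalling proteins on the small subunit. Fau (0.27) encodes a small-subunit protein fused to a ubiquitin-like sequence. Rps27rt (0.62 ± 0.73, SE), also above 0, is counted among the near-identical copies too, as a copy of Rps27. Rpl36al, at 172, 151, 188 and 122 CPM, was below 0 (-0.064). Of 22 other TOP messages and TOP-class snoRNA host genes, 20 were above 0, with a median of 0.25 that equals that of the ribosomal protein genes to 2 decimals. In 14 of them both mutant libraries lay above both controls, against 16.1% of all tested genes. The elongation factor gene Eef1a1 was at 675, 649, 766 and 1015 CPM (log2 change 0.43 ± 0.19, SE), and the snoRNA host Snhg1 had a log2 change of 0.75. Elongation factors were above 0 in 7 of 8 cases (median 0.14), but Eef1a1, Eef1b2, Eef1d, Eef1g and Eef2 are also in the TOP list. Initiation factors were divided, with 20 of 35 above 0 and a median of 0.040, among them Eif3e (0.29), Eif3f (0.40) and Eif3j1 (0.70). Eif3e, Eif3f, Eif3h, Eif4b and Pabpc1 are in the TOP list too, so the lists are not independent. In each of these lists 0 genes had an unadjusted p under 0.05 in edgeR, and DESeq2 called 0.

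Ribosome biogenesis genes, of which Npm1 is also in the TOP list, were above 0 in 36 of 48 cases, with a median log2 change of 0.17. Of all tested genes 48.7% were above 0. The nucleolar genes Rrp1b (11.7, 17.1, 26.3 and 25.2 CPM, log2 change 0.84), Wdr75 (0.45) and Nop14 (0.54) had an unadjusted p under 0.05 in edgeR and an adjusted p of 0.735 or more. They were the 3 of 48 with such a p on the higher side, against 1.99% of all tested genes. For the genes of RNA polymerase I, which makes the ribosomal RNA precursor, 7 of 14 were above 0. In 5 both mutant libraries lay above both controls and in 5 below, against 16.1% and 20.4% of all tested genes. Twistnb, one of its subunits, was at 20.02, 27.2, 43.3 and 35.6 CPM, whereas Taf1c, of its promoter selectivity factor, was at 16.7, 16.5, 7.30 and 9.01 CPM, and neither passed (edgeR adjusted p = 0.680 for Taf1c). Genes of mTORC1 and MYC were above 0 in 16 of 28 cases, with a median of 0.029. Mycl, a MYC family member, was at 2.86, 4.14, 6.62 and 7.80 CPM. Of 14 genes of p53 and ribosome assembly stress, which include the member Rps27l, 8 were above 0. The cell cycle inhibitor gene Cdkn1a was at 20.7, 18.4, 38.9 and 64.5 CPM, a log2 change of 1.40 ± 0.30 (SE, edgeR unadjusted p = 0.00684, adjusted p = 0.680). DESeq2 called it (adjusted p = 0.00893), as it did 0.914% of all genes. Btg2, also a p53 target, was at 756, 347, 1105 and 1185 CPM, while Sesn1, another, had a log2 change of -0.34.

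Ribosomal proteins of mitochondria, which serve the separate ribosome of that organelle and not of the cytosol, were lower in about as many cases as higher. Of 78 genes 34 were above 0, and the median log2 change was -0.031. Their sum was 2138, 2141, 2156 and 1946 CPM. Cytosolic over mitochondrial ribosomal protein transcripts gave ratios of 2.60 and 2.28 in control and 2.66 and 3.46 in mutant cells, without overlap but with mutant 1 close to control 1 (log2 difference 0.32, exact permutation p = 0.333). Mrpl47 was at 14.99, 14.3, 9.40 and 7.54 CPM and Mrpl19 at 15.2, 15.5, 10.2 and 10.0 CPM, both lower in both mutant libraries and neither past the test (edgeR adjusted p = 0.795 and 0.860). Both were picked by p. Of the 78 genes, 17 had both mutant libraries below both controls, against 20.4% of all tested genes. In 12 both lay above, against 16.1%.

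**Figure D4:**
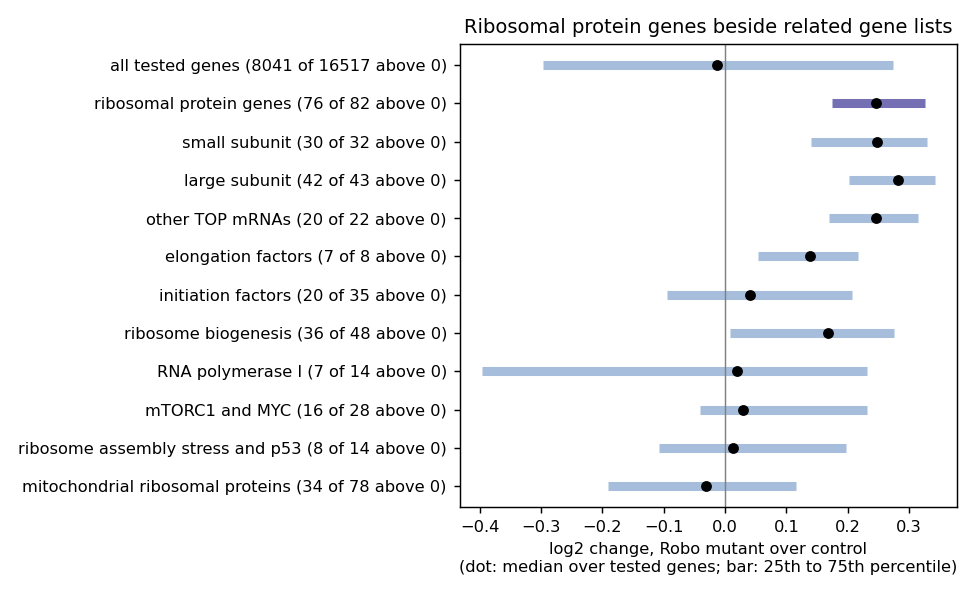
Median log2 change of Robo mutant over control (dot) and its 25th to 75th percentile over genes (bar) for the ribosomal protein genes, related lists and all 16517 tested genes; labels give how many tested genes were above 0. Cytosolic ribosomal protein genes and other TOP messages share a median of 0.25, and mitochondrial ribosomal proteins lie at -0.031.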

How the data were processed

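RNA was measured in 4 libraries of sorted β cells, made with SMART-Seq v4 and Nextera XT per the labels' protocols, a chemistry that does not mark strand. Per the submitters' processing notes the tools were RSEM 1.3.0, STAR 2.5.3a, edgeR 3.16.5 and bcl2fastq 2.20.0.422, and the build was GRCm38, with no roles given. The deposited table holds RSEM estimated counts in whole numbers. Its name says normalized, but the columns sum to unequal totals, and whether it was rescaled before deposit is not given in the sources used here. 0 columns of other samples were present.

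The 16517 genes that reached 10 counts in 2 or more libraries were fitted with TMM factors in edgeR 4.0.16 under R 4.3.3 (glmQLFit, glmQLFTest, two-sided, Benjamini-Hochberg over all tested genes, threshold 0.05). Standard errors are the log2 change over the root of F. DESeq2 1.42.0 and limma 3.58.1 on log2(CPM + 1) were alternatives. Errors of CPM are SD. Positions, transcripts and lengths (the principal transcript of median length) came from GENCODE M21 on GRCm38, which held 51719 of the 51912 identifiers. Copies were found with BLAST 2.17.0. Methods were tested on simulated counts. The simulated folds were larger than those of any tested member, and every gene had the same dispersion. That run therefore does not measure the power to detect changes of the size seen here.

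Members and lists were chosen with earlier results of these data known. The rule for named genes takes Robo1 and Robo2, the 12 members of smallest p, the 5 highest and 5 lowest per length, stalk proteins, paralogs with partners, and up to 3 genes of smallest p from each other list. Not all are named in the text. Adding the counts of copies was chosen after seeing the data.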

Additional observations from a re-analysis of the deposited data

How the results depend on the processing

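No paired analysis was possible because the labels give no replicate numbers that the genotypes share. In every alternative run 0 members passed at an adjusted p under 0.05. The median log2 change of the members stayed above 0, from 0.19 with library totals alone to 0.26 with median-of-ratios factors among the alternatives with all 4 libraries, and from 0.14 (without control 2) to 0.38 (without control 1) when a library was left out. Library totals alone moved the median of all genes to -0.071, and no filter to -0.076. The number of members higher at an unadjusted p under 0.05, 4 in the reported fit, was 10 in DESeq2 and ranged from 0 to 23 when a library was left out, with the spread then taken from the other genotype's 2 libraries. On the lower side, where the reported fit had 0, it was 1 with library totals alone and from 0 to 1 when a library was left out. The cause was not tested.

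Some named genes changed sign. Rps7 was at 0.0020 with median-of-ratios factors, 0.0018 with the stricter filter and 0.0019 in DESeq2, and Rps16 at 0.00041 on quantile-normalized values. With a library left out, the log2 change ranged from -0.13 to 0.10 for Rpl22l1, -0.21 to 0.21 for Rps16, -0.22 to 0.17 for Rps7, -0.024 to 0.60 for Rps15a, -0.10 to 0.22 for Rplp1, -0.036 to 0.49 for Rps27l, -0.013 to 0.36 for Rpl37a, -0.58 to 1.08 for Rps12l1, -0.058 to 0.29 for Rps3a1 and -0.54 to 0.076 for Rpl29. Among the values of named genes under the alternatives, 747 kept direction and side of the threshold, 19 changed sign, and 3 (Robo1, Robo2 and Cdkn1a in DESeq2) passed the threshold there. With 2 libraries a genotype, the exact tests cannot go below 0.333.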
